A study of Mus musculus with 2 samples.

Results

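Members of the RGS family, the regulators of G protein signaling, were followed on 2 Affymetrix arrays of mouse Neuro2a cells: *Rgs2*, *Rgs3*, *Rgs4*, *Rgs5*, *Rgs7*, *Rgs9*, *Rgs10*, *Rgs16*, *Rgs17* and *Rgs19*. They are 10 of the 18193 gene symbols that had a probe set of their own on these arrays, and all 27 probe sets annotated to 1 of them alone were taken. The 10 genes were chosen on the signals of these same 2 arrays and their siCPEB1 to siControl ratios, which are the values given here. These values are therefore a description of the 10 genes and were not tested.

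The arrays compared Neuro2a cells transfected for 24 h with a control siRNA (siControl) and Neuro2a cells transfected for 24 h with an siRNA against the coding region of *Cpeb1* (siCPEB1), and the question was which mRNAs differ in level once CPEB1, a protein that binds mRNA and regulates its polyadenylation and translation, is depleted. Neuro2a is a single line of mouse neuroblastoma cells with features of sympathetic neurons, and the labels name no other treatment for either group. Each group was 1 array made from 100 ng of total RNA, so there were no replicates, no p-value was computed, and the number of arrays limits the precision of every ratio. A difference in mRNA per cell and a difference in the number of cells that hold the mRNA cannot be told apart in such bulk RNA.

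RGS proteins speed up the hydrolysis of GTP by the alpha subunits of heterotrimeric G proteins and so shorten the signal that a G protein-coupled receptor sends. The family falls into subfamilies: the small R4 proteins, which act on Gi and Gq subunits, the R7 proteins, which are found mostly in neurons and pair with the G beta 5 subunit, the R12 proteins, and the RZ proteins, which carry a string of cysteines and were first known for acting on Gz. *Rgs4* is abundant in neurons of the brain, and the RGS4, RGS5 and RGS16 proteins are short-lived because a cysteine at their N-terminus is oxidized and marks them for degradation.

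The values are signals, the intensity that the MAS5 method gives to a probe set on a linear scale. The median signal was 21.0 on the siControl array and 21.6 on the siCPEB1 array, and a signal below the median is close to the background of the array. The *Cpeb1* probe set gave 302 in siControl and 38.5 in siCPEB1, a 7.86-fold lower signal, which matches the label of the siCPEB1 array. Of 13 neuroblastoma and sympathetic neuron markers with a probe set, 12 passed the filter on signal described next, and the summed signal of the markers was 16745 in siControl and 22422 in siCPEB1. The sympathetic transcription factor *Hand2* gave 3191 and 4033, while *Th*, the rate-limiting enzyme of catecholamine synthesis, stayed below the median on both arrays with 18.6 and 17.9.

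The filter kept a probe set whose signal reached the median on one array or both and was no lower on either than the 25th percentile, which was 5.07 in siControl and 5.62 in siCPEB1. A probe set that passed was called higher or lower when the ratio of siCPEB1 to siControl was above 2 or below 0.5. Of the 27 RGS probe sets, 14 passed this filter, from 8 of the 10 genes, and the other 13 were below the median on both arrays. Of the 14, 4 were higher, 1 was lower and 9 were within 2-fold. Over all 23655 probe sets that passed, 4.49% were higher and 4.04% were lower. The 4 higher probe sets were the 3 of *Rgs4* and 1 of *Rgs5*, and the lower one belonged to *Rgs19*. Of the 14, 10 reached the median on both arrays, whereas 2 probe sets of *Rgs4* and the 1 of *Rgs5* passed through the siCPEB1 array alone and 1 of *Rgs17* through the siControl array alone, which fixes their direction. With 1 probe set per gene, 2 genes were higher (*Rgs4* and *Rgs5*) and 0 were lower, where 4.99% of all 11554 genes were higher and 3.49% were lower.

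**Figure D1:**
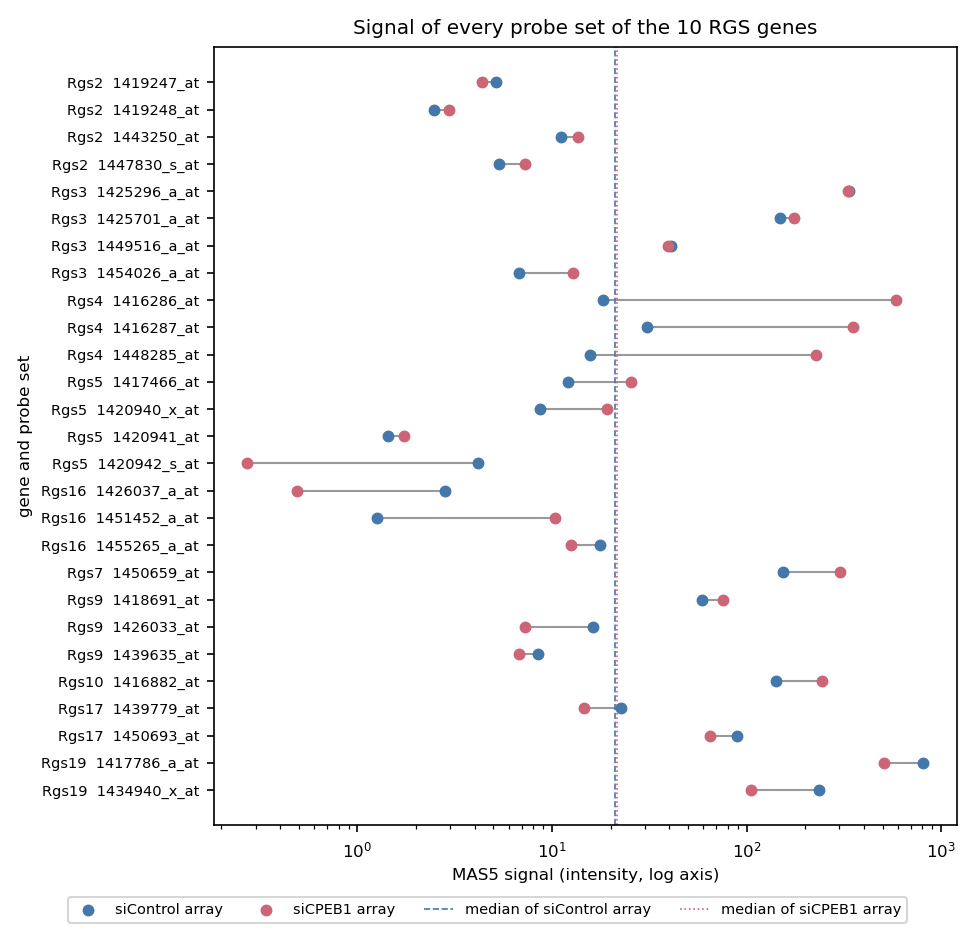
MAS5 signal (log axis) of each of the 27 RGS probe sets on the siControl array and on the siCPEB1 array, joined by a grey line, with the median of each array as a dashed or dotted line. The 3 *Rgs4* probe sets run from 15.6 to 30.9 in siControl to between 228 and 589 in siCPEB1, while all probe sets of *Rgs2* and *Rgs16* lie left of both medians.

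The plot of signals shows how far each probe set sits from the array medians, and the distance between its points is the ratio. In place of replicate error, the only spread that 2 arrays allow is that between probe sets of the same gene. The pooled SD of their log2 ratios was 0.37 over 5531 genes with more than 1 probe set that passed, and it went from 0.64 at the dimmest signals to 0.21 at the brightest. This SD holds no difference between cultures, so a ratio larger than it may still be one that any pair of cultures would give.

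*Rgs4*, an R4 member that dampens Gi and Gq signals in neurons, had the highest ratio of all. Its probe set 1416286_at went from 18.3 in siControl to 589 in siCPEB1. Probe set 1416287_at went from 30.9 to 352, and probe set 1448285_at went from 15.6 to 228. On the siCPEB1 array all 3 were above the 75th percentile of 159, and on the siControl array 1 was above the median and 2 were below it. The log2 ratios were 5.01, 3.51 and 3.87, which ranked first, 8th and 5th among the 23655 probe sets that passed, and their mean was 4.13 ± 0.78 (SD between the 3 probe sets). At the mean signal of the 2 arrays, the SD between probe sets of 1 gene was 0.31 for 1416287_at, the probe set with the smallest ratio. For *Rgs4* this mean is set mostly by the siCPEB1 signal, and at the dimmest signals the SD was 0.64. *Rgs4* was chosen on these ratios, so their size beside an SD is not a test. Because a signal below the median is poorly measured, it was set at the median for the fold. *Rgs4* was then at least 28.0-fold higher by 1416286_at and at least 10.8-fold higher by 1448285_at. Here and below, such a limit concerns the dim signal alone, and the other signal keeps an error that 1 array does not measure. Probe set 1416287_at, with both signals above the median, was 11.4-fold higher.

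*Rgs5*, an R4 member best known from pericytes and vascular smooth muscle, was near or below the median in all 8 of its values. Probe set 1417466_at went from 12.1 to 25.3, and it alone passed the filter. Its log2 ratio of 1.06 had an SD of 0.64 between probe sets at such signals, and with the siControl signal set at the median *Rgs5* was at least 1.20-fold higher, which is no longer past 2-fold. Of the 3 probe sets too dim to pass, 1420940_x_at had signals of 8.63 and 19.1, 1420941_at had 1.44 and 1.74, and 1420942_s_at had 4.17 and 0.272. They did not share a direction: 3 of the 4 *Rgs5* probe sets had the larger signal in siCPEB1 and 1 in siControl. Markers of pericytes and smooth muscle were also counted, and their part in the *Rgs5* values was not tested. Of 10 such genes 5 passed, 0 were higher and 2 were lower, where 4.99% of all genes were higher and 3.49% were lower. The summed signal of the 10 genes was 642 in siControl and 267 in siCPEB1. The lower ones were *Acta2*, the actin of smooth muscle, which went from 345 to 91.2, and *Pdgfrb*, a growth factor receptor of pericytes, which went from 97.1 to 26.9. The *Acta2* value came from 1416454_s_at, whose suffix marks probes that may be shared with other transcripts. Its probe sets 1444105_at (0.599 and 3.59) and 1456658_at (3.99 and 6.02) were too dim to pass and had the larger signal in siCPEB1. The others that passed were *Des* (67.9 and 35.9), *Notch3* (43.0 and 32.1) and *Cspg4* (24.0 and 21.3), all within 2-fold, while *Abcc9* and *Kcnj8*, channel subunit genes that mark pericytes, were below the median on both arrays. So were *Tagln* (2.33 and 2.69), *Cnn1* (2.26 and 1.05) and *Myh11*, whose probe sets went opposite ways (6.34 and 2.23, 1.53 and 12.7).

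*Rgs4* and *Rgs5* are neighbors on mouse chromosome 1, with 0 protein-coding genes between them in the RefSeq annotation, and they are transcribed toward each other, *Rgs5* from the plus and *Rgs4* from the minus strand. Their promoters are shown because these are the members with the highest ratios. The sequences are the 250 bases before the start of the transcript in the RefSeq table for GRCm38.p6, at chr1:169747643-169747892 for *Rgs4* and at chr1:169655251-169655500 for *Rgs5*, each written 5′ to 3′ on the strand of the gene. Capitals mark every match, on either strand, to a CCAAT box (CCAAT), to the core of a cAMP response element (TGACG), to an E-box (CANNTG) or to a TATA box (TATAAA).
Rgs4: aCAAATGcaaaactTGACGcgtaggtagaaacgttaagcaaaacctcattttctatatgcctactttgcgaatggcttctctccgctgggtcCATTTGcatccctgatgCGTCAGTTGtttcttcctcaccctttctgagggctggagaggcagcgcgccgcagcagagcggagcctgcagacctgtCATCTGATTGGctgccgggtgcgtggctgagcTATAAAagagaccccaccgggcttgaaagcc
Rgs5: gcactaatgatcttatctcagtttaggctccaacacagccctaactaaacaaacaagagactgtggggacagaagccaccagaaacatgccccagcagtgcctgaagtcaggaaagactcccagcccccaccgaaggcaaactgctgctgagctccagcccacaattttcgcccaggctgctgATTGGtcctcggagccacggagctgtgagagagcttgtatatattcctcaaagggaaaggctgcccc

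The *Rgs4* promoter held 1 CCAAT box, 2 cAMP response element cores, 4 E-boxes and 1 TATA box, and in 1 place the core CGTCA and the E-box CAGTTG overlap by 2 bases. The *Rgs5* promoter held 1 CCAAT box and 0 of the other motifs. Among the first listed promoters of the 10 RGS genes, 5 held a CCAAT box, 2 a cAMP response element core (*Rgs2* and *Rgs4*), 4 an E-box and 3 a TATA box. Of 27025 promoters of the same length in the table, 34.5% held a CCAAT box, 17.9% the core, 66% an E-box and 13% a TATA box. These matches are letters in the sequence and do not show that a factor binds there.

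The other R4 members were within 2-fold or too dim to measure. *Rgs3*, whose larger forms also act outside G protein signaling, gave 335 in siControl and 330 in siCPEB1 with probe set 1425296_a_at. Probe set 1425701_a_at gave 148 and 174, and probe set 1449516_a_at gave 40.8 and 39.5. Their log2 ratios were -0.02, 0.23 and -0.05, each below the SD between probe sets at its signal, and the mean was 0.06 ± 0.16 (SD between 3 probe sets). The fourth *Rgs3* probe set, 1454026_a_at, was below the median on both arrays with 6.74 and 12.7.

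*Rgs2*, which acts chiefly on Gq and is induced early in many stimulated cells, was too dim on both arrays for a fold. Its 4 probe sets gave 5.15 and 4.35 (1419247_at), 2.47 and 2.96 (1419248_at), 11.1 and 13.6 (1443250_at), and 5.32 and 7.24 (1447830_s_at), the siControl signal first. *Rgs16*, an R4 member that is induced by many stimuli and is degraded through the same pathway as *Rgs4*, was likewise below the median in all 6 values. Its probe sets gave 2.83 and 0.492 (1426037_a_at), 1.26 and 10.4 (1451452_a_at), and 17.6 and 12.6 (1455265_a_at), with no common direction. Of the 13 RGS probe sets that did not pass, 5 had ratios past 2-fold, among them the first 2 of *Rgs16*, and no fold is given for these because neither array measured them above its median.

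**Figure D2:**
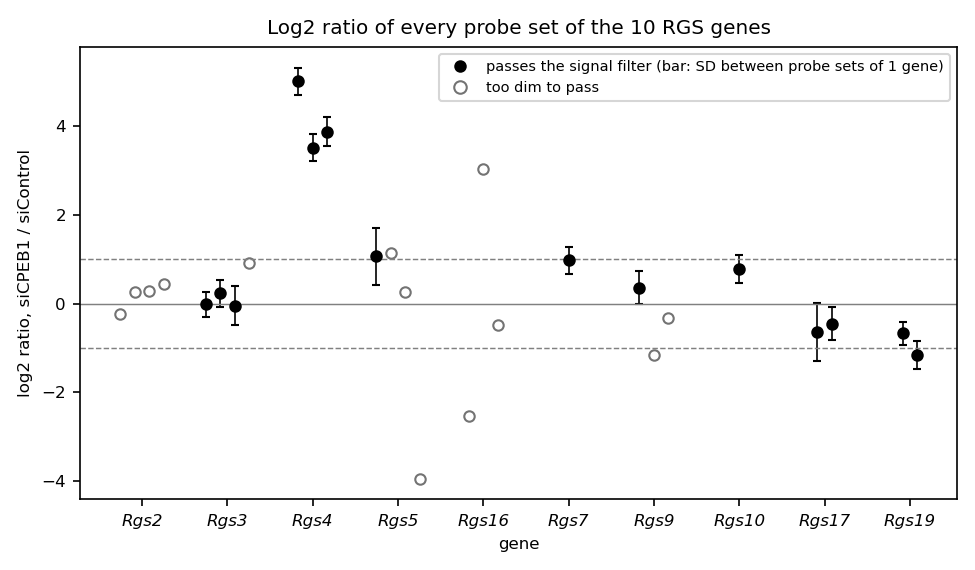
The log2 siCPEB1 to siControl ratio of every probe set of the 10 RGS genes, in the order R4 (*Rgs2* to *Rgs16*), R7 (*Rgs7* and *Rgs9*), R12 (*Rgs10*) and RZ (*Rgs17* and *Rgs19*). Filled points passed the filter on signal, with bars of 1 SD between probe sets of 1 gene at that signal, open points were too dim, and the dashed lines mark ratios of 2 and 0.5.

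Both R7 members among the chosen genes had larger signals in siCPEB1 at the probe set that passed. *Rgs7*, which forms a complex with G beta 5 and regulates Gi and Go signals in neurons, went from 154 to 302 at its only probe set, 1450659_at. This was 1.96-fold higher, just short of the 2-fold threshold, and the log2 ratio of 0.97 was above the SD of 0.31 at that signal. *Rgs9*, whose isoforms act in photoreceptors and in the striatum, went from 58.7 to 75.3 at probe set 1418691_at, and this log2 ratio of 0.36 was below the SD of 0.37 at its signal. Its other probe sets were below the median on both arrays, with 16.2 and 7.28 (1426033_at) and 8.46 and 6.74 (1439635_at), so that *Rgs9* had the larger signal in siCPEB1 with only 1 of its 3 probe sets.

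*Rgs10*, a small R12 member known from neurons and microglia, went from 142 to 244 at its only probe set, 1416882_at. It was 1.72-fold higher, with a log2 ratio of 0.78 against an SD of 0.31 at that signal. *Rgs7* and *Rgs10* were each measured by 1 probe set, so a probe set of the same gene cannot be set beside either value.

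Both RZ members among the chosen genes differed the other way. *Rgs19*, also known as GAIP, which binds the scaffold protein GIPC, went from 809 to 507 at probe set 1417786_a_at and from 235 to 105 at probe set 1434940_x_at. These signals were 1.60-fold and 2.23-fold lower in siCPEB1, with log2 ratios of -0.67 and -1.16, and all 4 values were well above the array medians. The second probe set may share probes with other transcripts, as its suffix marks, and it was not the one that represents the gene, so *Rgs19* does not count among the lower genes. *Rgs17*, which acts on Gi and Gz subunits, went from 89.0 to 65.0 at probe set 1450693_at and from 22.7 to 14.6 at probe set 1439779_at. The log2 ratios were -0.45 and -0.64. The first was above the SD of 0.37 at its signal and the second was about as large as the SD of 0.64 at its dimmer signal. Neither *Rgs17* probe set was past 2-fold.

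**Figure D3:**
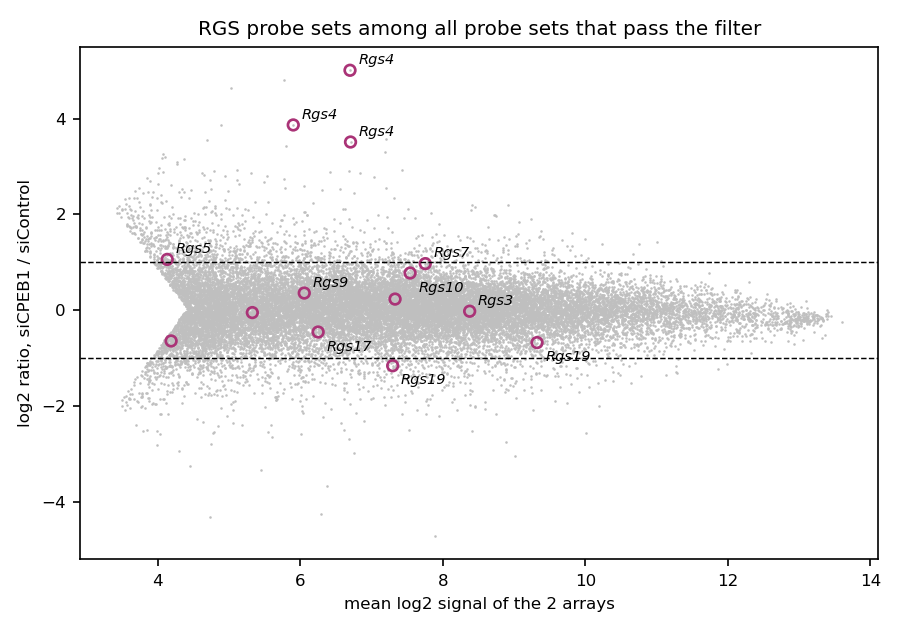
The log2 siCPEB1 to siControl ratio against the mean log2 signal of both arrays for the 23655 probe sets that passed the filter (grey), with the 14 RGS probe sets as circles and dashed lines at ratios of 2 and 0.5. The 3 *Rgs4* circles stand at the upper edge of the cloud, *Rgs5* sits at its dim end, and the circles of *Rgs3*, *Rgs9* and *Rgs17* lie inside it.

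In the plot of ratio against signal, the cloud of all probe sets narrows toward bright signals, and the straight edges on the left come from the filter. Of the 8 RGS genes that passed, the log2 ratio of the representing probe set was above 0 for 5 (*Rgs4*, *Rgs5*, *Rgs7*, *Rgs9* and *Rgs10*) and below 0 for 3 (*Rgs3*, *Rgs17* and *Rgs19*). Their median log2 ratio was 0.57, beside 0.05 over all genes. At the brightest probe set of all 10 genes, passed or not, the median was 0.33 and 6 of 10 were above 0. Of the 10, 5 genes lie on chromosome 1 (*Rgs2*, *Rgs4*, *Rgs5*, *Rgs7* and *Rgs16*), and these include *Rgs4* with the highest ratio as well as *Rgs2* and *Rgs16*, which were below the median on both arrays. Most neuroblastoma markers also had larger signals in siCPEB1: of the 12 that passed, 10 had log2 ratios above 0 and 2 below. Of the 12, 6 were higher and 0 were lower, where 4.99% of all genes were higher and 3.49% were lower. The median log2 ratio of the 12 was 0.99, and their part in the RGS values was not tested. The 6 higher ones were *Isl1*, *Gata3*, *Mycn*, *Phox2a*, *Chgb* and *Dbh*, with log2 ratios from 1.02 to 2.21. The 2 below 0 were the bright neuronal markers *Stmn2* (2556 in siControl and 2080 in siCPEB1) and *Gap43* (1406 and 1118), with log2 ratios of -0.30 and -0.33.

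The other RGS genes, and the proteins they act with, were counted in the same way. Over all 11554 genes, 4.99% were higher and 3.49% were lower, and at these shares short lists such as those below hold few genes past 2-fold. Of 9 further canonical RGS genes with a probe set, 7 were too dim to pass, namely *Rgs1*, *Rgs6*, *Rgs8*, *Rgs11*, *Rgs13*, *Rgs18* and *Rgs20*. The 2 that passed are R12 members: *Rgs12* went from 102 to 96.6 with a log2 ratio of -0.09, and *Rgs14* went from 71.5 to 81.5 with one of 0.19. Of the other proteins that carry an RGS domain, such as the G protein-coupled receptor kinases and axins, 12 genes passed, 0 were higher and 0 were lower, and the median log2 ratio was 0.11.

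Alpha subunits, the substrates of RGS proteins, were mostly bright and near a ratio of 1. Of 11 that passed, 0 were higher and 0 were lower at the representing probe set, and the median log2 ratio was -0.10. The Gi subunit genes *Gnai2* (1420 in siControl and 1226 in siCPEB1) and *Gnai3* (1352 and 1252) had log2 ratios of -0.21 and -0.11, and *Gnaz*, the Gz subunit, had one of -0.09. *Gnaq*, the Gq subunit, went from 187 to 306 with a log2 ratio of 0.71, while *Gna11*, its close relative, went from 1075 to 1149. *Gna15*, another member of that subfamily, went from 22.9 to 11.4, which missed the threshold for lower by less than 1%, and with the dim signal set at the median it was at least 1.06-fold lower. The remaining subunits that passed, *Gnao1*, *Gnat2*, *Gna12* and *Gna13*, had log2 ratios from -0.38 to -0.05. The probe sets of *Gnas*, a locus with several promoters that encodes the Gs subunit among other products, disagreed. The one that represents *Gnas* in the count, 1453413_at, was near the median with 22.3 and 28.3, a log2 ratio of 0.34. The brightest one, 1450186_s_at, gave 5310 and 5604. Probe set 1427789_s_at went from 21.1 to 141, a 6.68-fold higher signal, and 1421740_at went from below the median to 34.7, at least 1.65-fold higher.

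Of the beta and gamma subunits, 12 genes passed, 0 were higher and 0 were lower, with a median log2 ratio of -0.19. *Gnb5*, the partner of *Rgs7* and *Rgs9*, went from 157 to 196 with a log2 ratio of 0.32, below 1 but of the same sign as that of *Rgs7*. *Gng11* went from 1012 to 2011, which was 1.99-fold higher and just short of the threshold. Among 6 partners of the R7 and RZ proteins, which include *Gnb5*, 3 passed and 0 were past 2-fold. The scaffold gene *Gipc1* had a log2 ratio of 0.45, opposite in sign to that of *Rgs19*. Of the modulators of G proteins and the arrestins, 6 genes passed and 0 were past 2-fold, with a median log2 ratio of 0.15.

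**Figure D4:**
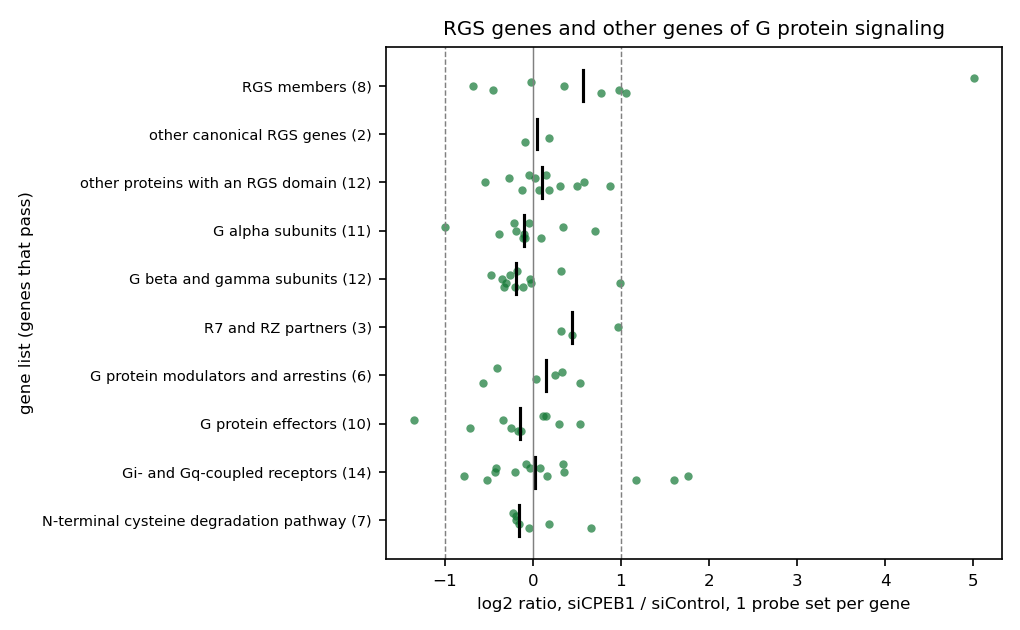
The log2 siCPEB1 to siControl ratio of the genes of each list that passed the filter, with 1 probe set per gene, a black bar at the median of the list, the number of genes that passed in brackets, and dashed lines at ratios of 2 and 0.5. *Rgs4* at 5.01 stands apart from all other genes shown, whose log2 ratios run from -1.34 to 1.77.

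The plot of gene lists sets the RGS genes beside those of the same pathway. Of the effectors, the adenylyl cyclases, phospholipases C beta and potassium channels that G proteins act on, 10 genes passed, 0 were higher and 1 was lower. The lower one was *Adcy7*, an adenylyl cyclase, which went from 58.1 to 22.9 and was 2.54-fold lower, and its other probe sets went from 126 to 49.4 and from 34.6 to 20.6. Of 33 Gi- and Gq-coupled receptors with a probe set, 14 passed, 3 were higher and 0 were lower, with a median log2 ratio of 0.03. Over all genes 4.99% were higher. All 3 receptors had siControl signals below the median and passed through the siCPEB1 array alone, which fixes their direction. The delta opioid receptor *Oprd1* went from 16.7 to 56.9, at least 2.70-fold higher. The alpha-1B adrenergic receptor *Adra1b* went from 18.1 to 40.8, at least 1.94-fold higher, and the dopamine receptor *Drd4* from 7.16 to 21.8, at least 1.03-fold higher, so that only *Oprd1* was past 2-fold with the dim signal set at the median.

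The genes of the pathway that degrades the RGS4, RGS5 and RGS16 proteins from their N-terminal cysteine were all measured above the filter. Of 7 genes, 0 were higher and 0 were lower, and the median log2 ratio was -0.15. *Ado*, the dioxygenase that oxidizes the cysteine, went from 579 to 914 with a log2 ratio of 0.66, *Ate1*, the arginyltransferase that acts next, went from 357 to 322, and the ubiquitin ligase gene *Ubr1* went from 262 to 225. These are mRNA signals, and no protein was measured.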

How the data were processed

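RNA from 2 Neuro2a cultures, siControl and siCPEB1, was measured on 1 Affymetrix array each. The submitters' processing notes name MAS5 in Affymetrix Expression Console (version not given) as the software with which the authors made the signals, and the deposited values are intensity on a linear scale. In MAS5 the background is subtracted and the whole array is then multiplied by 1 factor. The target of this scaling was not stated. The hybridization controls had a mean log2 ratio of -0.13 ± 0.08 (SD, 18 probe sets) and the poly-A controls one of -0.18 ± 0.18 (SD, 24 probe sets).

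From these values the log2 siCPEB1 to siControl ratio was computed without further scaling for 45037 probe sets, after 64 control probe sets were left out of 45101. Probe sets were named through the platform annotation, with symbols updated by gene identifier to RefSeq names of GRCm38, so that the older name that *Rgs16* shares with *Rgs14* did not join them. With 34945 probe sets there was 1 symbol, 932 had several and 9160 had none listed, and no RGS symbol was among those with several. A gene was represented by a probe set that passed the filter, by preference not an _x_at or _s_at one, and then by the brightest. By rule, all RGS genes were named, and of the other lists of G protein signaling and protein degradation the genes past 2-fold, with other canonical RGS genes and alpha subunits where described. Other names, the cell type markers among them, were chosen after their values were seen. Past 2-fold in the lists that follow were *Col1a2* and *Tyrobp*. The members and lists were chosen with earlier results of these data known. Marker lists of fibroblasts (1 of 2 genes that passed was higher, summed signals 143 and 548), endothelium (0 of 1, 82.2 and 135), haematopoietic cells (1 of 3, 319 and 256) and glia (0 of 1, 189 and 289) were also summed, and 0 genes of these lists were lower.

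The alternatives were 4 other scalings, 16 added to both signals, 2 other filters, 2 other ways to represent a gene and a floor at the median. Promoters came from the RefSeq table, which held a start for all 10 genes. The steps were tested on simulated data in which only genes well above the siControl median were changed. Calls on dim signals were therefore not tested in this way. The calculations used Python 3.11.15, numpy 2.4.6, pandas 2.3.3, statsmodels 0.14.6 and matplotlib 3.10.9. Arrays with other siRNAs were not analysed here.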

Additional observations from a re-analysis of the deposited data

How the results depend on the processing

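With 1 array per condition, a ratio and the usual difference of 2 cultures cannot be told apart, and signals near the array medians give the least precise ratios. The 4 other scalings left the counts of RGS genes and probe sets past 2-fold as they were. With 16 added to both signals 1 RGS gene was higher, and over all genes 292 were higher and 240 lower. With no filter 6 RGS probe sets were higher and 4 were lower, and over all genes 2351 were higher and 1730 lower. With the median required on both arrays 1 RGS gene and 1 RGS probe set were higher, and 323 genes overall. With dim signals set at the median 1 RGS gene was higher, and over all genes 396 were higher and 323 lower. The gene lost under these settings was *Rgs5*, with a log2 ratio of 0.56 with 16 added and of 0.27 with the floor, and without a value where the median was required on both arrays. The log2 ratio of *Rgs4* ran from 3.51, with its only probe set above both medians, to 5.01. Of the 81 log2 ratios of single RGS genes under the alternatives, 76 moved by less than the pooled SD of 0.37 between probe sets. The other 5 moved by more, and 0 of the genes past 2-fold changed sign. Many of the 81 could not move, so the count of 76 does not measure stability. Without the filter, or with the brightest probe set, every RGS gene kept its value. The settings that use the median of both arrays changed no gene represented above both medians. Division of each array by its median or an upper percentile shifted all genes equally. Division by the medians gave 529 higher and 453 lower genes, against 577 and 403 as reported. No paired analysis was possible because each group had 1 array.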

Other observations

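The genes next to *Rgs5* and *Rgs4* on chromosome 1 were looked at in the same way. Of the 10 nearest protein-coding genes, 5 on each side, 5 had a probe set that passed the filter, and 0 were higher and 0 were lower. Their log2 ratios ran from -0.32 for *Ddr2*, a collagen receptor (481 in siControl and 387 in siCPEB1), to 0.59 for *Hsd17b7*, an enzyme of cholesterol synthesis (150 and 226). *Nuf2*, a kinetochore gene and the nearest neighbor of *Rgs5*, gave 432 and 453.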
